A study of Mus musculus with 5 samples.

Results

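The 300 barcodes described here were the most keratin- and claudin-rich of the untreated 11-day mouse salivary gland organoids (mSGOs). They were found by ranking. Of the 14266 barcodes of the 11-day library, 9367 had at least 2000 unique molecular identifiers (UMIs, each standing for 1 captured RNA molecule) and no more than 5% of them from mitochondrial genes. These were ordered by the share of their UMIs that came from Krt7, Krt8, Krt18, Krt19, Cldn3 and Cldn4 together, and the 300 highest were taken. The remaining 9067 eligible barcodes served as the comparison. The whole series held 72788 barcodes.

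mSGOs are cultures of submandibular gland cells, here of C57BL/6 mice, embedded in the basement membrane gel Matrigel. The series had 5 droplet-based 3′ libraries, 1 per group. These were mSGOs collected on day 7 (untreated, or irradiated on day 5 with photons or with protons at 7 Gy), mSGOs collected untreated on day 11, and fresh gland tissue. The 11-day mSGOs came from other animals and another run than the rest. All mSGOs shared a medium with EGF, FGF2, insulin, dexamethasone, the ROCK inhibitor Y27632, and media conditioned by cells that secrete R-spondin1 and Wnt3a. Each organoid library pooled cultures of 4 animals, and only cells that excluded propidium iodide entered a library. The donor mice of the 7-day and tissue libraries were 8 to 12 weeks old by their labels, and the labels of the 11-day library give no age. The study's methods give the same age range for its mice. With 1 library per group, and with barcodes that are not replicates, no difference was tested. All intervals are 95% intervals that cover counting error only, and values against the rest describe this library.

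A salivary duct has a luminal layer, which faces the saliva, and a basal layer, which rests on the basement membrane. Luminal duct cells carry simple-epithelium keratins, with KRT8 and KRT7 as type II and KRT18 and KRT19 as type I partners that pair into filaments, and they seal the lumen with tight junctions built from claudins. Basal cells carry KRT5 and KRT14, the transcription factor p63 encoded by Trp63, and the integrins and laminins of hemidesmosomes, the anchors to the basement membrane.

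The ranking genes include pairs of neighbours. In the RefSeq annotation of GRCm38.p6, Krt8 and Krt18 lie 23.9 kb apart on chromosome 15 on opposite strands, with 2 long non-coding RNA genes between them. Cldn4 and Cldn3 lie 39.3 kb apart on chromosome 5, also on opposite strands, with 0 genes between them. The 250 bases before the annotated start of these 4 genes are shown because both members of each pair are ranking genes. They are written 5′ to 3′ on the strand of the gene, and capitals mark matches, on either strand, to TGANTCA, the letters bound by AP-1 factors, and to GGGCGG, the letters of a GC box. The windows are chr15:102004343-102004592 (minus strand) for Krt8, chr15:102027966-102028215 (plus) for Krt18, chr5:134985964-134986213 (plus) for Cldn3 and chr5:134946935-134947184 (minus) for Cldn4.
Krt8: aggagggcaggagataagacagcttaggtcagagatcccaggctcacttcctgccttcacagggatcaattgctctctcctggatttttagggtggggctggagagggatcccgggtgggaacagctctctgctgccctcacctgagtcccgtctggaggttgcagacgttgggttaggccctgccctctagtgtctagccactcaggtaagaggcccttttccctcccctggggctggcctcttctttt
Krt18: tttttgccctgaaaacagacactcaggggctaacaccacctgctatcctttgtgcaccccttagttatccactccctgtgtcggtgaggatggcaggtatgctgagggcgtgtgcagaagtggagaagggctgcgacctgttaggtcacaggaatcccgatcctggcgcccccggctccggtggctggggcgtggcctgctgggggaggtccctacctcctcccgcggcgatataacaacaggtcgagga
Cldn3: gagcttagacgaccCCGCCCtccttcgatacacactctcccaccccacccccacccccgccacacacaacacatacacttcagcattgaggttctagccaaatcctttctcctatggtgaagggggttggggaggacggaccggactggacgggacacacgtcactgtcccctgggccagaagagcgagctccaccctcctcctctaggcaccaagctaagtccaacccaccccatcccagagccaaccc
Cldn4: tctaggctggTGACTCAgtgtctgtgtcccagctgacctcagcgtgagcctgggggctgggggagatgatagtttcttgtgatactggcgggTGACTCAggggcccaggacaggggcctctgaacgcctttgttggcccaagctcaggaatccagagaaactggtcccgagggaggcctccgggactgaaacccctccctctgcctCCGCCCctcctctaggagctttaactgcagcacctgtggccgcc

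The Cldn4 window held 2 matches to TGANTCA, 240 and 158 bases before the start, and 1 to GGGCGG, 44 bases before it. The Cldn3 window held 1 match to GGGCGG, 236 bases before the start. The Krt8 and Krt18 windows held neither string, and the same window of Krt7 held 4 matches to GGGCGG. Of 32851 RefSeq windows of this length, 6.75% held TGANTCA and 32.7% held GGGCGG, and the strings do not overlap each other. These matches are letters only and were not set against any measure of binding. Krt19 was not matched.

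The ranking values are given as a description, because they chose the barcodes. The summed share of the 6 genes ran from 0.613% to 2.14% of a barcode's UMIs in the chosen set, with a median of 0.719%. In the rest it ran from 0 to 0.611%, with a median of 0.201%. The last chosen barcode stood at 0.613% and the next at 0.611%, so the boundary cut a continuous tail. Just 1 barcode other than the highest reached 2.00%. The chosen barcodes were also deeper, with a median of 4389.5 UMIs (2016 to 14543) against 3182 (2000 to 16463) in the rest. After thinning each barcode to 2000 UMIs the median number of detected genes was 1174 in the chosen set and 1175 in the rest. The part of depth in the results below was not tested beyond the alternatives given at the end.

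**Figure D1:**
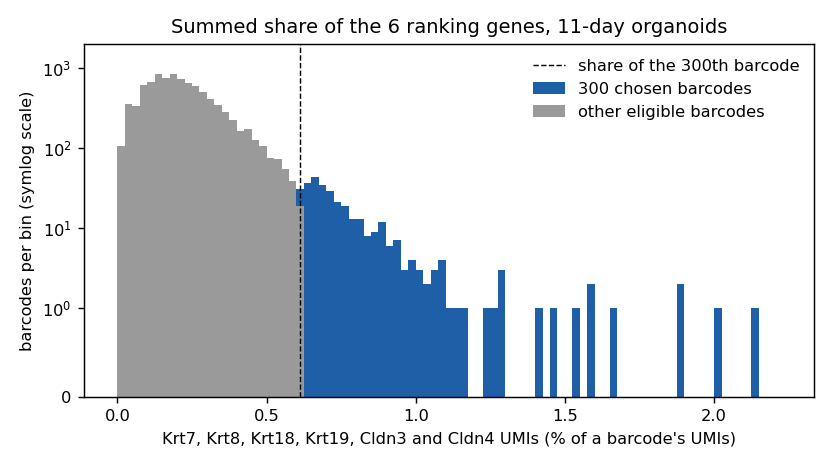
Number of eligible barcodes of the 11-day library (symlog axis) against the summed UMI share of the 6 ranking genes (% of a barcode's UMIs), with the 300 chosen barcodes in blue, the rest in grey and the share of the 300th barcode as a dashed line. The boundary at 0.613% falls on a slope without a gap, and the chosen tail reaches 2.14%.

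Krt18 and Krt7 carried most of the ranking. Krt18 was found in all 300 chosen barcodes, where its share had a lowest value of 0.0162%, a median of 0.308% and a highest of 1.35% of UMIs. Its summed level was 3193 CPM (UMIs scaled to a total of 1000000 per group) in the chosen set and 837 CPM in the rest. Krt7 had UMIs in all but 1, with a median share of 0.244% and a highest of 0.903%, and stood at 2609.5 CPM against 985 CPM. The pair supplied 39.7% (Krt18) and 32.5% (Krt7) of the 6-gene UMIs. Krt18 was the most counted of the 6 in 167 chosen barcodes, Krt7 in 114, Krt19 in 15, Krt8 in 2 and Cldn4 in 2. With Krt7 left out of the ranking 222 of the 300 barcodes were chosen again, and with Krt18 left out 197. Krt8 had UMIs in 279 barcodes, with a median share of 0.0684% and a highest of 0.576%, and stood at 971 CPM against 202 CPM.

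Krt19 was the most uneven ranking gene. It had UMIs in 92 of the 300 barcodes, with a median of 0 and a highest share of 0.638% (56 UMIs), and stood at 459 CPM against 32.9 CPM. The claudins were more evenly spread. Cldn4 had UMIs in 245 barcodes, with a median share of 0.0421% and a highest of 0.291% (559 against 173 CPM), and Cldn3 in 155 barcodes, with a median of 0.0109% and a highest of 0.210% (242 against 35.2 CPM). A UMI of all 6 genes was found in 42 chosen barcodes, of 5 genes in 120, of 4 in 107, of 3 in 28 and of 2 in 3, so most chosen barcodes held several of the 6 at once. In the rest, 42 of 9067 held all 6. At 2000 UMIs per barcode, Krt8 was detected in 77.7% of the chosen set and 30.8% of the rest, Cldn4 in 57.7% and 27.4%, Cldn3 in 31.7% and 5.53%, and Krt19 in 24.7% and 4.08%.

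Across the 300 chosen barcodes the share of Krt8 went with that of Krt18 (Spearman's rho 0.374) and the share of Cldn3 with that of Cldn4 (0.180). Krt18 ran against Krt7 (-0.343) and Krt19 (-0.316). The ranking constrains the sum of the 6 shares, and barcodes of 1 library share its free RNA and sparse counts, so these are descriptions. In the 9067 other barcodes the 4 values were 0.162, 0.072, 0.139 and 0.048. Some pairs that are not neighbours stood above Cldn3 with Cldn4 there, among them Cldn3 with Krt18 (0.142) and with Krt8 (0.107), and others below.

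Beyond the ranking genes, 6789 genes had at least 20 CPM in the higher group and at least 100 UMIs over both, and their median log2 ratio of chosen over rest was -0.02 (pseudocount 1 CPM, as for all ratios here). Of these, 229 (3.37%) were at least 2-fold higher and 211 (3.11%) at least 2-fold lower in the chosen barcodes, 6.48% in all, while 76.7% lay within 0.5 of 0 on the log2 scale. The ranked barcodes therefore resembled the rest in most genes. With a minimum of 5000 UMIs per barcode, under which 105 of the 300 were chosen again, 130 genes were higher and 85 lower, and with the cluster numbered 5 below left out of both groups 388 were lower. The lists used below were set with earlier results of these data known, and their counts stand beside these background shares.

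Other genes of the duct lining were mostly higher where the ranking genes were. Of the 17 luminal duct genes, 15 met the minimum, 6 were at least 2-fold higher and 0 lower, with a median log2 ratio of 0.87 over the 16 genes with 10 UMIs. Cldn7, a further claudin, had UMIs in 70.7% of the chosen barcodes, with a median share of 0.0248% and a highest of 0.179%, against 26.7% of the rest. Its level was 359 against 107 CPM, a log2 ratio of 1.73 (1.61 to 1.88). Cd24a, a surface glycoprotein used to sort salivary progenitors, stood at 367 against 127 CPM (log2 ratio 1.52). Elf3, an epithelial transcription factor, was found in 23.7% against 8.14% of barcodes (log2 ratio 1.80, 1.57 to 2.10), and St14, which encodes the surface protease matriptase, in 36.3% against 12.1% (1.53). With cluster 6 left out of both groups the ratio of Elf3 was 0.92. Krt23, another type I keratin, had the highest ratio of the list (3.23) from 75 of the barcodes, and 54.4% of its chosen UMIs lay in 10 of them. General epithelial genes differed less. The adhesion molecule Epcam had UMIs in 99.3% and 95.1% of barcodes and stood at 1831 against 1261 CPM (log2 ratio 0.54), the chloride channel protein gene Clic1 at 0.53, Cdh1, which encodes E-cadherin, at 0.20 and the tetraspanin gene Cd9 at 0.09. Muc1, the apical mucin that marks a differentiated lumen, had 0 UMIs in the chosen barcodes (floor 2.06 CPM for 3 counts) and 0.121 CPM in the rest.

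Tight junction and polarity genes showed the same tilt, whereas adhesion genes that basal and luminal cells share did not. Of the 10 tight junction and polarity genes that met the minimum, 4 were at least 2-fold higher and 0 lower (median log2 ratio 0.58 over 17 genes with 10 UMIs or more in both groups together). Marveld2, which encodes tricellulin of tricellular contacts, had UMIs in 16.7% of the chosen barcodes and 2.46% of the rest, with a log2 ratio of 2.33 (2.05 to 2.90). The polarity gene Crb3 had a log2 ratio of 1.79 and Ocln, which encodes occludin, one of 1.49. Pard3, a polarity scaffold also used outside tight junctions, was at 451 against 802 CPM (-0.83). Of 13 adherens junction and desmosome genes, 0 were 2-fold higher and 0 lower (median 0.03).

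Basal genes split into groups. Of 12 basal duct genes, 7 were at least 2-fold lower and 0 higher, with a median log2 ratio of -1.09. Trp63 had UMIs in 33 of the 300 chosen barcodes (11.0%), with a highest share of 0.0983%, against 37.4% of the rest (31.7 against 175 CPM, log2 ratio -2.43, -2.92 to -2.05). The hemidesmosome genes Col17a1 (-2.32), Dst (-2.20) and Itga6 (-1.13) and the laminin-332 gene Lamb3 (-1.86) were lower in the same direction. The basal keratins did not move together. Krt14 was found in 50.7% of the chosen barcodes and 88.8% of the rest and stood at 749 against 1687 CPM (-1.17, -1.26 to -1.08), with a median share of 0.0111% against 0.135%. With cluster 5 left out of both groups its ratio was -0.53. Krt5, its usual partner, was found in 262 chosen barcodes and stood at 907 against 1026 CPM (-0.18, -0.26 to -0.10), with a median share of 0.0616% against 0.0854%. Krt17 and Krt15 had slightly higher summed levels than in the rest (log2 ratios 0.16 and 0.32) but were found in fewer barcodes, Krt17 in 91.0% against 96.6% with a median share of 0.154% against 0.172%, and Krt15 in 45.7% against 56.9% with a median of 0 against 0.0290%. The 10 richest barcodes held 33.5% of the Krt15 UMIs. At 2000 UMIs per barcode, Krt5 was detected in 68.0% of the chosen set and 80.3% of the rest, Krt15 in 37.7% and 47.6%, and Krt17 in 83.0% and 92.3%. UMIs of both Krt5 and Krt14 were present in 137 chosen barcodes (45.7%) and in 81.1% of the rest, and 23 chosen barcodes had neither. Over the whole set, the label of luminal duct-like cells was therefore met by the higher luminal and lower basal lists. Detection of all 4 basal keratins was also lower. The label was not met alike in clusters 3 and 4 (described below), with 38 chosen barcodes each. There the basal duct list summed to 8075 and 8257 CPM, against 6954 CPM in the rest. The luminal duct list summed to 14819 and 10595 CPM, against 10179 CPM, and Krt14 in cluster 4 was above the rest. Over the whole set the summed levels of Krt5, Krt15 and Krt17 stayed near those of the rest, and the barcodes are called by their ranking here.

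**Figure D2:**
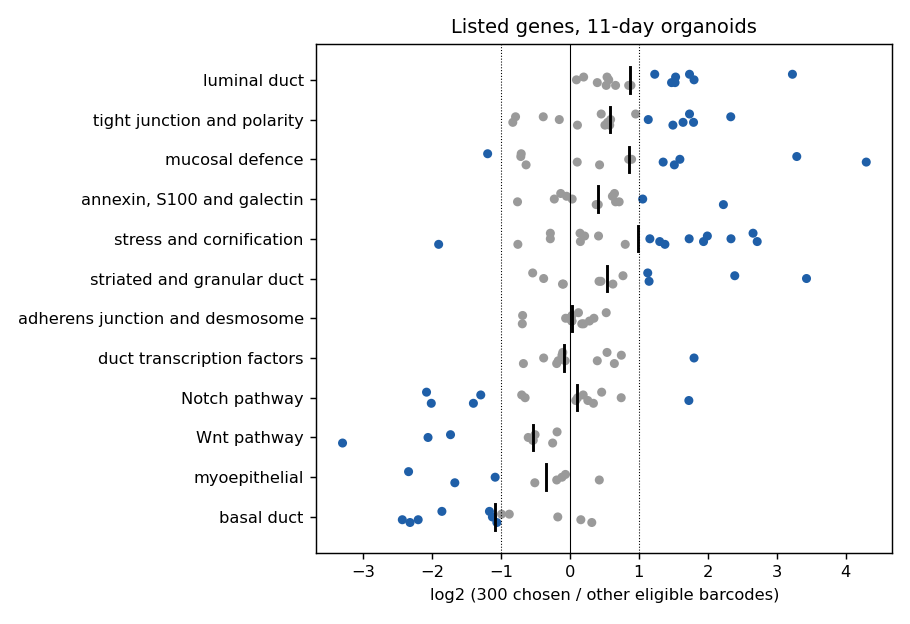
Log2 ratio of CPM in the 300 chosen barcodes over the other eligible barcodes (x axis, pseudocount 1 CPM) for the genes of 12 lists with at least 10 UMIs, 1 point per gene, blue where the ratio is at least 2-fold, with a black bar at the list median. The luminal duct list lies to the right with a median of 0.87 and the basal duct list to the left with a median of -1.09, and adherens junction and desmosome genes lie near 0.

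Genes of mucosal defence and membrane-linked calcium-binding genes were among those with the most UMIs that differed. Of 10 mucosal defence genes that met the minimum, 4 were at least 2-fold higher and 0 lower (median 0.85). Within 2-fold, Defb1 was lower at 192 against 314 CPM (-0.71, -0.89 to -0.54), as was C3 at 33.7 against 53.0 CPM (-0.64, -1.09 to -0.24). Lcn2, which encodes an iron-siderophore binding protein, had UMIs in 88.7% of the chosen barcodes with a median share of 0.393% and a highest of 5.69%, against a median of 0.120% in the rest (7131 against 2496 CPM, log2 ratio 1.51, 1.48 to 1.54). Ltf, which encodes the iron-binding milk and saliva protein lactoferrin, had UMIs in 28.7% of the chosen barcodes and 2.49% of the rest, with a median of 0 and a highest share of 2.17% (613 against 30.2 CPM, 4.30). The antiprotease-like secreted gene Wfdc2 stood at 10229.6 against 5669 CPM (0.85), and the neutrophil chemokine genes Cxcl5 and Cxcl1 had log2 ratios of 3.29 and 1.35. Anxa1, which encodes the membrane-binding protein annexin A1, was in all but 1 of the chosen barcodes, with a median share of 0.622% and a highest of 5.11%, against a median of 0.143% in the rest. Its level was 11838 against 2529.5 CPM (log2 ratio 2.23). Anxa3 was at 955 against 459 CPM (1.05, or 0.97 with cluster 6 left out of both groups), and the other 10 annexin, S100 and galectin genes that met the minimum were within 2-fold (list median 0.41).

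Stress keratins and genes of stratified epithelium were mixed. Of 13 that met the minimum, 6 were at least 2-fold higher and 1 lower. The keratin genes Krt13 of non-cornified mucosa (2.66, in 21.7% of the barcodes) and Krt6a of wound edges (2.34, in 42.7%), and Dmkn (1.94) and Sbsn (1.73), which are secreted in cornifying layers, were higher, and Lgals7, which encodes a galectin of stratified epithelium, was lower (-1.91). Of the Krt13 UMIs, 70.0% lay in 10 chosen barcodes and 25.6% in 1, and with cluster 6 left out of both groups its ratio was 0.31. Krt6a reads could be shared with its near copy Krt6b. Larger-duct genes had a median of 0.54, with 2 of 6 at least 2-fold higher, namely Fxyd2 (1.15), a regulator of the sodium pump, and the receptor phosphatase gene Ptprd (1.13). With cluster 5 left out of both groups these were -0.74 and -0.82. Acinar genes were mixed. Of the 5 that met the minimum 0 differed 2-fold, and the list summed to 748 against 599 CPM, with a median of -0.81 over the 9 genes with 10 UMIs. Slc12a2, which encodes a sodium, potassium and chloride cotransporter, had a log2 ratio of 0.82, and Alcam, an adhesion molecule, one of 0.32. Amy1 was lower, at 20.0 against 35.7 CPM (-0.81, -1.42 to -0.31). Chrm3, which encodes the muscarinic receptor that drives saliva secretion, stood at 170.0 against 100.6 CPM (0.75, 0.56 to 0.94) and was found in 39.0% against 19.1% of barcodes. It lay mostly in cluster 5, with 288 CPM in the chosen barcodes there against 57.7 CPM in the other chosen barcodes. Over the alternatives given at the end the log2 ratio of Chrm3 ran from -0.43 to 1.08. The secreted acinar genes Dcpp1 and Dcpp3 had 0 UMIs in the chosen set and were found in 2 barcodes of the rest. The defining genes Bhlha15, Smgc, Bpifa2 and Lpo had 0 UMIs in the chosen set and at most 3 in the rest, so these zeros do not separate the groups. Among 14 duct transcription factors, 8 met the minimum and Elf3 alone was 2-fold higher, while Tfcp2l1 stood at 1107 against 1162 CPM and Sox9 at 74.3 against 119 CPM (-0.68).

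Wnt pathway genes lay below the rest, while Notch and EGF receptor pathway genes were mixed. The Wnt list had a median log2 ratio of -0.54, with each of its 9 genes with 10 UMIs below 0, and of the 6 that met the minimum 2 were at least 2-fold lower, namely Sostdc1 (13.1 against 138 CPM, -3.30), a secreted inhibitor of BMP and Wnt signals, and Lgr6 (-1.73), a receptor for R-spondins. Of 8 Notch pathway genes, 2 were at least 2-fold lower, namely the ligand genes Jag2 (-2.08) and Jag1 (-1.30), while the receptor gene Notch1 was at -0.65 and the target Hes1 at 0.26. Of the EGF receptor ligand list 1 of 5 was higher, the feedback gene Phlda1 (1.10, or 0.64 with cluster 6 left out of both groups), with the ligand gene Areg just inside 2-fold (0.98). Of 15 cycling genes (median -0.89), 2 met the minimum and 0 differed 2-fold, namely the chromatin gene Hmgb2 (153 against 190 CPM, -0.31) and the replication gene Pcna (48.2 against 44.3 CPM, 0.12). The division markers Mki67 (4 UMIs, 2.75 against 11.5 CPM) and Top2a (6 UMIs, 4.13 against 14.5 CPM) were too rare to be counted among them. In the lists set for progenitor markers that the study discusses, Cd24a alone of 3 (Cd164, Sox9 and Cd24a) was 2-fold higher, and Trp63 alone of 5 (Itgb1, Cd44, Trp63, Nt5e and Itgb4) was 2-fold lower. Those lists share Cd24a and Trp63 with the luminal and basal lists.

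The 15 highest ratios outside the ranking genes included Sprr2d, Ltf, Psca, Sprr2f, Ppbp, Crisp3, Il1a, Cxcl3, Sorbs2, AA467197, Cxcl5, Gabrp, Prss27 and Krt23, with log2 ratios from 4.46 to 3.23. Several rested on few barcodes. Sprr2d, a cornified envelope gene whose reads could be shared with its Sprr2 copies, had UMIs in 14 chosen barcodes, and 64.3% of them lay in 1 barcode. Psca, which encodes a surface antigen of gland and urothelial epithelium, had UMIs in 26 barcodes, with 45.0% of them in 1 (1034 against 53.4 CPM). Sprr2f had UMIs in 13 barcodes, with 52.2% of them in 1, and Cxcl3 in 27 barcodes, with 93.0% of them in 10. Without the 10 richest barcodes of each gene the ratios of Sprr2d, Sprr2f, Cxcl3, Psca and AA467197 were -2.16, -3.28, -0.027, -0.00324 and 0.12. With cluster 6 left out of both groups those of Sprr2d, Psca, Sprr2f and Il1a were -0.11, -0.40, 0.39 and 0.80, and with cluster 5 left out of both that of Crisp3 was -0.31. Ltf was broader, with 86 barcodes and 8.75% of its UMIs in 1. Others with many barcodes were Prss27, a membrane-linked serine protease gene (92 barcodes, log2 ratio 3.24, 3.08 to 3.59), Gabrp, a GABA receptor subunit gene of epithelia (79, 3.28), and Sorbs2, a cytoskeletal adaptor gene (79, 3.52). Cxcl5 had UMIs in 82 barcodes, but 67.1% of them lay in 10 and 14.4% in 1, and with cluster 6 left out of both groups its ratio was 1.78. When the 10 chosen barcodes richest in each gene were left out, 104 of the 229 genes were still at least 2-fold higher and 10 were below 0. The 10 lowest ratios belonged to Sostdc1, Mill1, Mapt, Tgfbr3, Clca3a2, Sh3rf3, Col12a1, Apoe, Pi15 and Kcnh1 and ran from -3.30 to -2.58.

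The chosen barcodes lay in several clusters. When all 9367 barcodes were clustered without the 6 ranking genes, 7 clusters were found, and they are given by number and leading genes. Cluster 5 (930 barcodes, led by Dcpp1 and Dcpp3, each found in 1 barcode, and Klk1b11, found in 54) held 149 chosen barcodes (49.7%, 43.9% to 55.5%). Cluster 6 (216 barcodes, led by Psca, Sprr2f and Sprr2d) held 62 (20.7%), and clusters 3 (1598 barcodes, led by Sptssb, Ifitm1 and Aqp4) and 4 (1412 barcodes, led by Ube2c, Cenpf and Hmmr) held 38 each. The leading genes named for cluster 4 had UMIs in only 110, 100 and 86 of its barcodes. The cycling list summed to 367 CPM in its chosen barcodes, against 854 CPM in its unchosen ones. Clusters 1 and 2, together the most numerous, held 4 and 9, and cluster 7 (181 barcodes, led by Acta2) held 0, which allows up to 1.22% of the chosen set by the exact binomial interval. The chosen barcodes made up 28.7% of cluster 6, 16.02% of cluster 5, 2.69% of cluster 4 and 2.38% of cluster 3. Of the 100 highest ranks, 51 lay in cluster 5, 25 in cluster 6, 16 in cluster 4 and 7 in cluster 3, and the first rank lay in cluster 4. In cluster 7, whose leading gene Acta2 belongs to contractile cells but was found in only 6 of its barcodes, Krt7 had UMIs in 76.8% of the barcodes, Krt18 in 51.4%, Krt19 in 6.08% and Cldn3 in 1.66%, at a median of 2939 UMIs. The shares of the rest for Krt19 (5.99%) and Cldn3 (9.77%) are to be read beside these.

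The ranking genes were mixed differently in each cluster. Among chosen barcodes, Krt18 reached 4414 CPM and Krt8 1909 CPM in cluster 4, against ranges of 2158 to 3583 and 651 to 882 CPM in clusters 3, 5 and 6. The Krt18 peak lay in few barcodes. The 8 highest-ranked barcodes of the whole set, all in cluster 4, stood at 9357 CPM of Krt18 and 4631 CPM of Krt8, whereas the other 30 chosen barcodes of cluster 4 stood at 3159 CPM of Krt18 (2895 to 3439.7), below the 3583 CPM of cluster 5 (3445 to 3725), and at 1218 CPM of Krt8 (1057 to 1397), above the other clusters. This split was made after the values were seen. Krt19 was highest in clusters 3 (1154 CPM) and 6 (866 CPM) and lowest in cluster 5 (136 CPM, 34 of 149 barcodes). The claudins were highest in cluster 6, with Cldn4 at 841 and Cldn3 at 375 CPM.

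**Figure D3:**
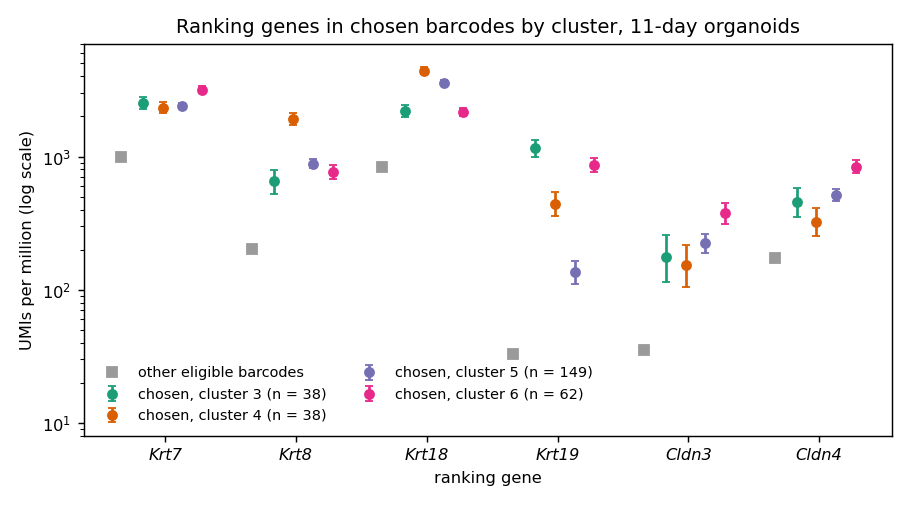
Level of each ranking gene (CPM, log axis) in the chosen barcodes of clusters 3, 4, 5 and 6, as coloured points with exact 95% Poisson intervals, beside the other eligible barcodes as grey squares. Krt8 and Krt18 are highest in cluster 4, for Krt18 through 8 of its 38 barcodes, Krt19 ranges from 136 CPM in cluster 5 to 1154 CPM in cluster 3, and Cldn3 and Cldn4 are highest in cluster 6.

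Genes outside the ranking separated the chosen barcodes further. In cluster 5 the chosen barcodes had 10571 CPM of Lcn2, 14428 CPM of Wfdc2, 1180.1 CPM of Ptprd and 763 CPM of Fxyd2, whereas in cluster 4 Ptprd stood at 47.6 CPM and Fxyd2 had 0 UMIs. Krt14 was lowest in cluster 5 (202 CPM), then cluster 6 (673 CPM), and highest in cluster 4 (2228.5 CPM), above the 1687 CPM of the rest. In cluster 6 the chosen barcodes had 22349.8 CPM of Anxa1, 4263 CPM of Psca (24 of 62 barcodes), 2999 CPM of Ppbp, a platelet-type chemokine gene (44 of 62), 2184 CPM of Cxcl5 and 1817.5 CPM of Krt13. Ltf was in 45 of the 149 chosen barcodes of cluster 5 and in 34 of the 62 of cluster 6. Cluster 4 alone had over 100 CPM of the mesenchymal-type genes Vim (138), Lgals1 (357) and Adam12 (214), with Krt17 at 4238 CPM. In cluster 3, Krt15 was at 1954 CPM, next to 2147 CPM in cluster 6 and 381 CPM in cluster 4. These clusters were built from the same genes, so their differences are a description.

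**Figure D4:**
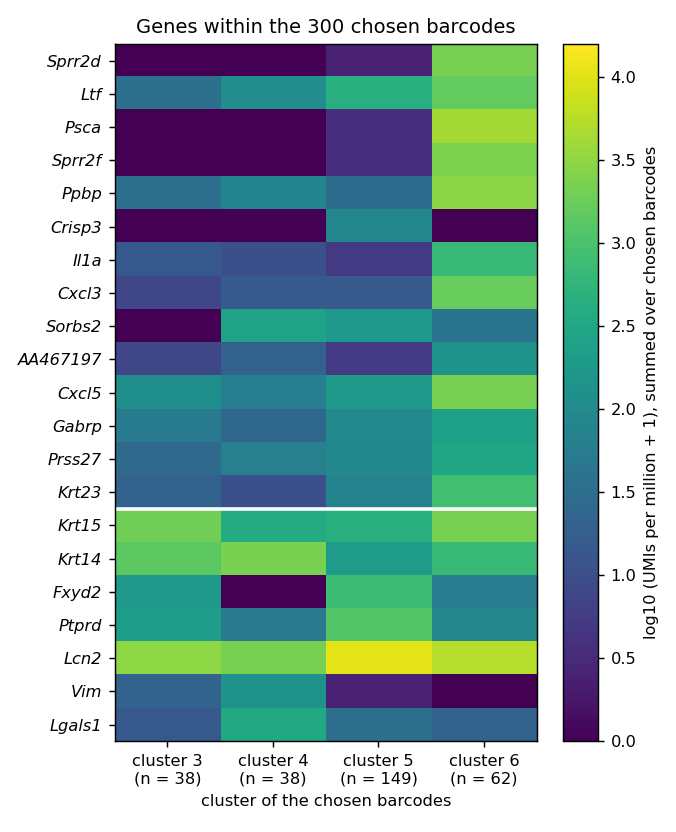
Level of 21 genes in the chosen barcodes of each cluster, coloured by log10 of CPM plus 1, with 14 of the 15 highest genes of the whole comparison above the white line and other named genes below. The upper genes are brightest in cluster 6, except Crisp3 and Sorbs2, and Lcn2 is brightest in cluster 5.

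Within each of these clusters the luminal duct, basal duct and mucosal defence medians lay nearer to 0 than over the whole set. In cluster 5, whose chosen barcodes held the most UMIs (707570), 0.61% of the genes counted were at least 2-fold higher and 1.58% at least 2-fold lower. The shares were 2.35% and 8.96% in cluster 3, 3.51% and 8.28% in cluster 4, and 1.53% and 1.62% in cluster 6, where the chosen barcodes summed to 147376, 210009 and 352129 UMIs. At such totals a gene at 20 CPM has few UMIs or none, so these shares hold sampling zeros and are not read as differences. The luminal duct median, chosen over unchosen, was 0.38 in cluster 3, 0.55 in cluster 4, 0.40 in cluster 5 and 0.30 in cluster 6. The basal duct median was -0.46, -0.88, -0.55 and -0.59 in the same order. That of tight junction and polarity genes was 0.16, 0.85, 0.09 and 0.19, against 0.58 over the whole set, and that of mucosal defence genes 0.17, 0.19, 0.43 and 0.13, against 0.85. Elf3, at 1.80 over the whole set, was at 0.77, 0.84, 0.08 and 0.99. Trp63 was lower in each (-0.93, -1.69, -2.80 and -0.98), and Cldn7 was higher in each (1.06, 2.06, 0.73 and 0.44). Anxa1 was also higher in each (1.09, 2.09, 1.31 and 0.45). Leaving 1 of these clusters out of both the chosen set and the rest kept 179 to 227 of the 229 higher genes and 163 to 206 of the 211 lower genes. Without clusters 5 and 6 in either group, 117 of the 229 were still at least 2-fold higher and 21 fell below 0, while 104 of the 211 were still at least 2-fold lower and 5 rose above 0.

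The ranking overlapped only in part with rankings on other lists. Of the 300 barcodes highest for mucosal defence genes, 82 (27.3%) were among the chosen, and 75 (25%) of the 300 highest for the other luminal duct genes. These lists summed to 20196 and 17247 CPM in the chosen set and share Wfdc2, a large part of both, so their overlaps are not independent. The overlap was 45 (15%) for the larger-duct list, 34 (11.3%) for stress and cornification genes, 20 (6.67%) for the myoepithelial list, 19 (6.33%) for the acinar list, 9 (3%) for the basal duct list and 5 (1.67%) for cycling genes. The chosen barcodes made up 3.20% of all those eligible. Within the chosen set, the summed level of the annexin, S100 and galectin list was 27351 CPM in ranks 1 to 100, 23486 CPM in ranks 101 to 200 and 18568.5 CPM in ranks 201 to 300, and that of the actin list was 9514, 7972 and 6847 CPM. The larger-duct list went the other way (2542, 3019.9 and 3554 CPM), and the basal duct list stayed between 5328 and 5505 CPM.

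Markers of immune, endothelial and fibroblast cells were at or near 0 in the chosen barcodes. The immune list summed to 5 UMIs (7 of 9 genes at 0, Ptprc among them), the endothelial list to 3 UMIs (all of Pecam1) and the fibroblast list to 1 UMI. The myoepithelial list summed to 1170 against 1080 CPM, with 6 of 11 genes at 0. Its defining genes Acta2, Myh11, Cnn1 and Tagln had 0 UMIs in the chosen set and were rare in the rest, where Acta2 was found in 15 barcodes (0.165%). Of its genes that other cells also use, Tpm1 was at 853 against 635 CPM (0.43), Tpm2 at -0.12, Csrp1 at -0.19 and Sparc at -2.34. The median mitochondrial share was 2.77% against 2.63% in the rest, and that of the nuclear transcript Malat1 2.64% against 3.20%. Early response genes had a median log2 ratio of 0.42, with 1 of 17 at least 2-fold higher (Ier3, 1.32). A doublet score was at or above its boundary in 0 of the 300 chosen barcodes (upper end of the same kind of interval 1.22%) and in 702 (7.74%) of the rest. Of the 11-day barcodes, 214 had a barcode string that another library also held, 6 of them chosen. The part of these in the results was not tested.

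A few percent of the barcodes of each organoid library, and fewer in tissue, reached the same threshold. At or above 0.613% were 56 of 1947 eligible barcodes of the untreated 7-day mSGOs (2.88%, 2.18% to 3.72%), 78 of 2965 after photons (2.63%, 2.08% to 3.27%) and 110 of 2892 after protons (3.80%, 3.14% to 4.57%), against 300 of 9367 at 11 days (3.20%, 2.86% to 3.58%). The untreated 7-day share was 37.4% with a minimum of 5000 UMIs in both libraries and 300 barcodes again chosen at 11 days, and 11.7% when Krt7 was left out of the ranking. The median share of all eligible barcodes was higher at 7 days (0.305% to 0.354%) than at 11 days (0.206%). The 7-day barcodes at or above the threshold also held more Krt14 and Cldn4 than the 11-day chosen set. Krt14 stood at 5563 (untreated), 4118 (photons) and 4884 CPM (protons), against 749 CPM. Cldn4 stood at 1892, 1856 and 1627 CPM in the same order, against 559 CPM. Whether these shares count like cells was not tested. Fresh tissue had 4 of 1169 (0.342%), with 12 to 143 UMIs of Krt18 and 0 UMIs of Krt19, Krt5, Krt14 and Ltf in each. Age of culture, animals, run and software version cannot be told apart between 7 and 11 days, and Malat1 took a median of 0.0835% to 0.181% of UMIs in the 7-day barcodes at or above the threshold. Its UMIs there were unevenly spread, since summed over these barcodes it took 1.85% (untreated), 3.29% (photons) and 2.73% (protons) of UMIs, and 21 of 56, 30 of 78 and 39 of 110 barcodes exceeded 1%, against 289 of 300 at 11 days. Contrasts were therefore made within each library, at or above against below the threshold, and set side by side.

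In the 7-day libraries the luminal duct list lay above and the basal list below the median of all genes, which was 0.16 in the untreated, 0.11 in the photon and 0.14 in the proton contrast, against -0.02 at 11 days. The luminal median was 0.42 in the untreated, 0.73 in the photon and 0.72 in the proton library, with 3, 4 and 5 of 15 genes at least 2-fold higher against backgrounds of 5.16%, 5.62% and 4.81%. Elf3 (0.87, 1.40 and 1.22) and Cldn7 (1.03, 1.50 and 1.34) were higher in all of them, as was Anxa1 (1.07, 1.54 and 1.74). The basal median was -0.15, -0.70 and -0.32, with 0, 5 and 1 of 12 genes at least 2-fold lower against backgrounds of 1.93%, 3.52% and 1.16%. Trp63 was at -0.83, -1.42 and -0.94 and Krt14 at -0.11, -0.52 and -0.30, less far from 0 than the 11-day values of -2.43 and -1.17. Ppbp (1.54, 2.18 and 1.59) was higher in each 7-day library. Psca was at -0.12, -0.76 and 1.29, and Ltf had 1 UMI in each. Of the 229 higher 11-day genes, 112, 126 and 129 met the minimum in the 3 libraries, and 38 (33.9%), 60 (47.6%) and 68 (52.7%) of those were at least 2-fold higher there. Of the 211 lower genes, 8 of 94, 25 of 99 and 5 of 91 were at least 2-fold lower. No difference between treatments was tested, since each had 1 library.

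**Figure D5:**
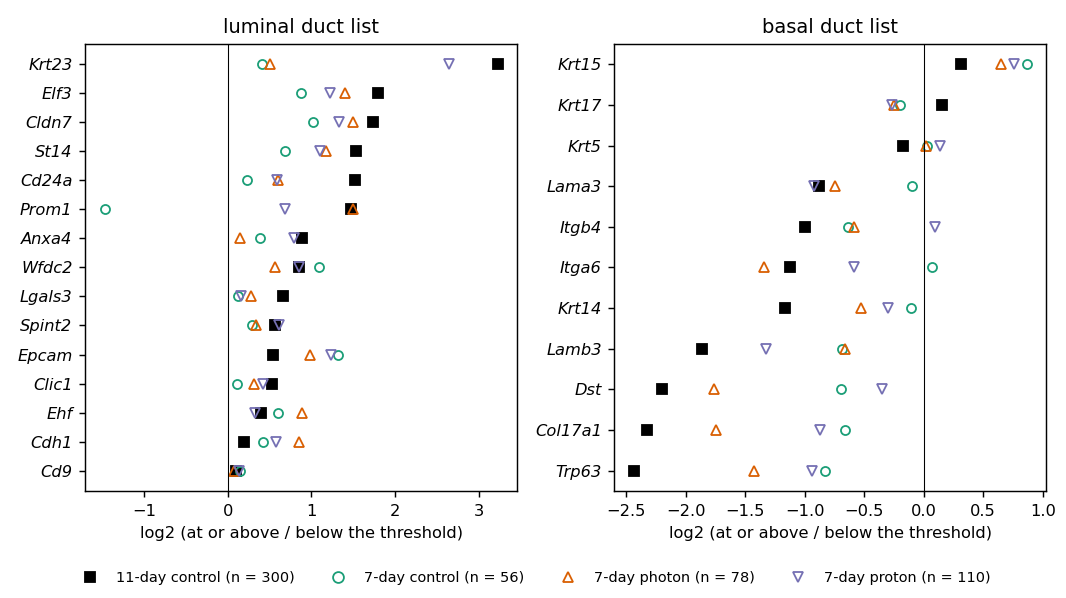
Log2 ratio of CPM in barcodes at or above the threshold over those below it (x axis), for luminal duct genes (left) and basal duct genes (right) with at least 10 UMIs in the 11-day contrast and reported here, as black squares for 11-day mSGOs and open symbols for the 7-day libraries. Krt23, Elf3 and Cldn7 lie to the right of 0 in every library, and Trp63, Col17a1 and Dst lie to the left in every library and farthest at 11 days.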

How the data were processed

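For each library the authors deposited whole-number UMI counts per gene and barcode, already filtered to barcodes called as cells. The submitters' processing notes name Cell Ranger 5 and mm10, the study's methods name GRCm39, and the file headers give software version 3.0.1 (7-day and tissue) or 7.0.0 (11-day) and no build. Whether intronic reads were counted is not given in the sources used here. Of the gene symbols of the 11-day table, 38 stood for more than 1 gene and were kept apart by identifier.

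The ranking used barcodes with at most 5% mitochondrial UMIs and at least 2000 UMIs. UMIs were summed over the 300 chosen and over the 9067 other barcodes (1453140 and 32926678 UMIs) and scaled to CPM. Log2 ratios used a pseudocount of 1 CPM. Intervals are exact Poisson for CPM, conditional exact binomial for ratios (of the plain CPM, without the pseudocount) and Clopper-Pearson for shares, at 95%. Genes counted had at least 20 CPM in the higher group and 100 UMIs over both. List medians used genes with at least 10 UMIs. The floor given beside a gene with 0 UMIs is the level that 3 counts would have, and ratios used the plain counts with the pseudocount. The summing and intervals were tested on simulated data.

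Named genes were the ranking genes, up to 4 extremes and the near-0 markers of each of 30 lists, the 15 highest and 10 lowest ratios, and the study's 11-day markers. Some genes this rule picks are not reported here by name, but they remain in the counts and medians. Members and lists were chosen with earlier results of these data known. Clustering left out the ranking genes and used 2000 variable genes, 30 components, 15 neighbours and Leiden resolution 0.8 (scanpy 1.11.5, leidenalg 0.10.2, Python 3.11.15). Doublets were scored with Scrublet. Its automatic threshold marked 0 barcodes and had not worked, so the highest 7.49% of scores (702) were taken, and they were left out only in an alternative. Promoter windows are from RefSeq (GRCm38.p6), where 5 of the 6 ranking genes matched.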

Additional observations from a re-analysis of the deposited data

How the results depend on the processing

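No paired analysis was possible because each group held 1 library. A total of 29 alternatives were run, 7 of them chosen after seeing the data (cluster 3, 4, 5 or 6 left out of both the chosen set and the rest, the 10 richest barcodes left out, and Leiden resolutions of 0.4 and 1.2, where 237 and 157 chosen barcodes shared a cluster). The reported values were 229 higher genes, 211 lower genes, a luminal duct median of 0.87, a basal duct median of -1.09 and 2.88% of 7-day barcodes at or above the threshold. With at least 5000 UMIs per barcode they were 130, 85, 0.65, -0.69 and 37.4%. With 150 barcodes chosen, 343 genes were lower and the share was 0.976%, and with 600 chosen these were 121 and 14.4%. Ranking without Krt7, Krt8, Krt18 or Cldn4 gave shares of 11.7%, 4.62%, 5.75% and 1.03%, and without Krt18 a luminal median of 0.64. Ranking on 2000 UMIs per barcode gave a share of 6.99%. Ranking on a random part of the UMIs and measuring on the remainder gave a luminal median of 0.57. A pseudocount of 10 CPM gave 125 lower genes and a luminal median of 0.73, and no CPM minimum gave 595 higher and 993 lower genes. Without cluster 5 there were 388 lower genes and a luminal median of 0.73, and without the 10 richest barcodes per gene 104 higher genes. Of the 76 named genes within 2-fold, 30 lay on both sides of 0 over the alternatives. Among the named genes that differed 2-fold, 10 values of 8 genes changed sign. These were Top2a with the thinned ranking (0.032), Crisp3 (-0.31), Ptprd (-0.82) and Fxyd2 (-0.74) without cluster 5, Sprr2d (-0.11) and Psca (-0.40) without cluster 6, and Sprr2d (-2.16), Psca (-0.00324), Sprr2f (-3.28) and Cxcl3 (-0.027) without the 10 richest barcodes. The cause was not tested. Of the 300 barcodes, 105 were chosen again with at least 5000 UMIs, 168 with a mean z-score, 197 without Krt18 and 219 from a random part of the UMIs. With 1 library no value carries error between animals or cultures, and at these depths (2000 UMIs or more) a gene without UMIs in a barcode may still have been expressed.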

Other observations

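Genes of general cell upkeep stayed near the rest in the chosen barcodes. Of 13 mitochondrially encoded genes, 0 differed 2-fold (median log2 ratio 0.05), as was the case for 17 nuclear respiratory chain genes (0.20), 12 glycolysis and hypoxia genes (-0.02) and 13 actin cytoskeleton genes (0.29). Of 11 antioxidant and iron genes, 1 was at least 2-fold lower, Slc7a11, which encodes the cystine transporter xCT (310 against 668 CPM, -1.11), and Fth1, the ferritin heavy chain gene, was at -0.27. Transcripts retained in the nucleus had a median of -0.45 over 4 genes, and the 3 that met the minimum, Malat1 (-0.25), Neat1 (-0.37) and Kcnq1ot1 (-0.52), were within 2-fold. Antigen presentation genes of MHC class I had a median of 0.22 with 0 of 5 at 2-fold, where H2-K1 and H2-D1 (0.43 and 0.44) may share reads with near copies. Of 6 interferon response genes, 1 was 2-fold higher, the tetherin gene Bst2 (213 against 98.8 CPM, 1.10).

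The chosen barcodes of cluster 4 stood apart from the others in the interferon and actin lists as well. The actin list summed to 13395 CPM there against 6228 to 9565 CPM in the chosen barcodes of clusters 3, 5 and 6, and the interferon response list to 895 CPM against 516 to 704 CPM. The larger-duct list was at 457 CPM in cluster 4 and at 4917 CPM in cluster 5. The 38 chosen barcodes of cluster 4 had a median of 5435.5 UMIs, more than those of clusters 3, 5 and 6 (3722 to 4845).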
